A study of Arabidopsis thaliana with 6 samples.

Results

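The 10 genes described here are XTH15 and XTH17 to XTH25 of Arabidopsis thaliana, members of the xyloglucan endotransglucosylase/hydrolase (XTH) family. They were taken by locus code from a table of 27978 rows, and all 10 were found in it. RNA-seq was done on wild-type Columbia seedlings in 3 groups of 2 libraries. Seedlings 4 days old were moved to Murashige and Skoog plates with sucrose that held either IAA (indole-3-acetic acid, a natural auxin) at 1 nM or melatonin (MT) at 10 nM. Both compounds were added from ethanol stocks, and control plates held 0.1% ethanol. All samples are titled 7 days, but the control columns of the table are named 72 h, so the age of the control plants is uncertain in every comparison with control. The labels do not say how many plants went into a library or that replicates were grown separately, so the spread behind each p-value is that between these libraries and may be technical.

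XTH enzymes act in the cell wall, where they cut xyloglucan, the polymer that tethers cellulose microfibrils, and join the cut end to another xyloglucan chain or to water. In this way they loosen, repair or reinforce walls as cells grow. XTH22 (AT5G57560), also called TCH4, was first found as a gene whose transcript rises after plants are touched. XTH17 (AT1G65310), XTH18 (AT4G30280), XTH19 (AT4G30290), XTH20 (AT5G48070) and XTH21 (AT2G18800) are known for their transcripts in roots. XTH23 (AT4G25810), XTH24 (AT4G30270, also called MERI5), XTH25 (AT5G57550) and XTH15 (AT4G14130) complete the set. The genes are taken below as TCH4 with the genes numbered after it (XTH22 to XTH25), the root-type genes (XTH17 to XTH21) and XTH15.

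The sequences just before the starts of XTH22, XTH23 and XTH18 are shown because these were the members called higher with MT. They are the 250 bases before the annotated start in the TAIR10.1 assembly, credited to RefSeq and located by locus code. The build used by the authors is not given in the sources used here. Capitals mark matches to any of 7 motifs searched on both strands.
XTH22, chr5:23308681-23308930, minus strand: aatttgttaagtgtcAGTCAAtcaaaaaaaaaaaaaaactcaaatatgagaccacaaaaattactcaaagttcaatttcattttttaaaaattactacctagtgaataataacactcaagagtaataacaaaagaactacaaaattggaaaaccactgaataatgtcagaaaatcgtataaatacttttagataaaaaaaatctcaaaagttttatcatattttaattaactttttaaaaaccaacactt
XTH23, chr4:13128144-13128393, plus strand: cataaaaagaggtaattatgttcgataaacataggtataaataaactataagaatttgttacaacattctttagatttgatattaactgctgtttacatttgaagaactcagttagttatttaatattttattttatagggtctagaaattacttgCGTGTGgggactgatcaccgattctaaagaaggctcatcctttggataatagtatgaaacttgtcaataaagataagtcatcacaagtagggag
XTH18, chr4:14827212-14827461, minus strand: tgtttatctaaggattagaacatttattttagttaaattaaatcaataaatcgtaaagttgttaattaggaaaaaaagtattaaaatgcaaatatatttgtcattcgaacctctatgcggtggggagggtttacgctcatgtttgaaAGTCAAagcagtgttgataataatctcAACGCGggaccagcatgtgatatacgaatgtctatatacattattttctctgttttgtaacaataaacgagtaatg

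The motifs were the W-box forms TTGACC and TTGACT, the rapid stress response element CGCGTT, the dehydration response element ACCGAC, the auxin response element TGTCTC, the G-box CACGTG and CGTGTG, a brassinosteroid element. The search window ran from 250 bases before to 50 after the start. TTGACT was found in XTH22 (235 bases before the start) and XTH18 (103 bases before), and 21.8% of 27443 promoters of protein-coding genes hold it. CGCGTT was found in XTH18 (76 bases before the start) and XTH20 (31 bases before), against 3.4% of all promoters. XTH23 held CGTGTG 94 bases before its start (6.52% of all promoters) and TTGACC 43 bases after it (14.2%). ACCGAC was found in XTH20 alone among the 10 genes (5.7% of all promoters), where it overlaps a TTGACC match, and TGTCTC in XTH21 alone (14.2%). CACGTG was in none of the 10 (7.68%), and CGTGTG was also in XTH25. A match is a description of the letters and shows no binding.

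XTH17 is shown beside XTH18 because the 2 genes, on different chromosomes, share almost the same bases before their starts. Capitals mark the bases that differ in these 94 bases.
XTH18, chr4:14827212-14827305, minus strand: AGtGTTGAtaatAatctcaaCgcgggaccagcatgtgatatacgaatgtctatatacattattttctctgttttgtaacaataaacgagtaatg
XTH17, chr1:24256960-24257053, plus strand: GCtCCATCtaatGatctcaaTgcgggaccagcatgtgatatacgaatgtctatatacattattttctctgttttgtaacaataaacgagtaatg

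The stretch is identical at 85 of 94 bases, and the 73 bases next to the start are the same in both genes. Counted from 1 at the 5′ end of the stretch, with the XTH18 base first, the difference nearest the start is C21T. It lies inside the CGCGTT match of XTH18, which is written there on the other strand as AACGCG at positions 19 to 24, so XTH17 holds no match. Among the other pairs of the 10 genes, at most 40 of the last 100 bases were the same, against 87 for XTH17 and XTH18. Over their coding sequences XTH17 and XTH18 were 92.2% identical, XTH18 and XTH19 89.2%, and XTH22 and XTH23 80.9%. The longest run of identical coding bases was 68, in XTH18 and XTH19. The length of the reads is not given in the sources used here, so reads from stretches that XTH17 to XTH20 share may have been split between them or dropped, and the values of these 4 genes are uncertain to that extent.

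Total counts were 40087221 to 65558371 per library. Levels are given as CPM (counts scaled to library size, with TMM factors), with the SD of the 2 libraries. Of the 10 genes, 9 passed the filter on low counts and were tested with the quasi-likelihood test of edgeR. P-values were adjusted by the Benjamini-Hochberg method over all 21267 genes tested, with a threshold of 0.05. Log2 fold changes are given with their standard errors (SE). MT replicate 1 stood apart in its plastid reads, which took 0.285% of its counts against 0.0196% to 0.0244% in the other 5 libraries. The labels name seedlings as the tissue and the design text names rosette leaves. Markers of both root and leaf were read in every library: each of 9 endodermis and 6 root hair markers had counts in all 6 libraries, and the 8 leaf photosynthesis markers summed to 43600 to 47500 CPM. In such mixed tissue, fewer cells of a type and less RNA per cell cannot be told apart.

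In seedlings given MT, XTH22, XTH23 and XTH18 rose against control, by 2.67-fold, 2.70-fold and 3.49-fold. In seedlings given IAA, XTH22 alone among the 9 tested passed the threshold, higher by 2.12-fold. XTH18, XTH21 and XTH23 were higher by 2.2-fold, 2.24-fold and 1.79-fold with IAA without passing. In all, 7 of the 9 had a positive log2 fold change with IAA. No member fell past the threshold in either comparison, where 0.118% of all genes did with IAA and 0.226% with MT. With MT 3 of the 9 tested members were called higher, where 1.67% of all tested genes were; with IAA it was 1 of 9, where 0.583% of all were. The median log2 fold change of the 9 genes was 1.04 with MT and 0.40 with IAA, against -0.003 and 0.014 over all genes. Both comparisons use the same control libraries. The genes were chosen with earlier results of these data known, so these counts describe them and test nothing about the family.

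**Figure D1:**
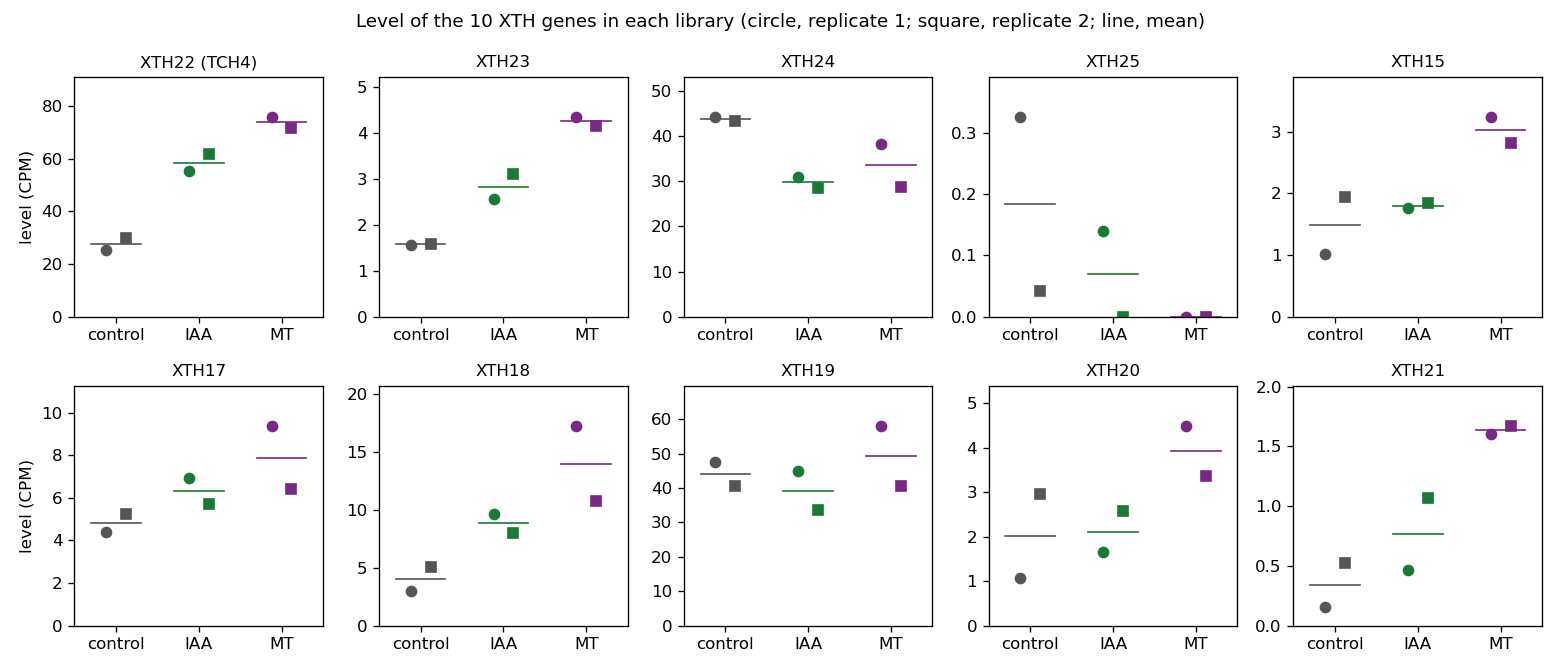
Level of each of the 10 XTH genes in CPM (vertical axes, each from 0) in the control, IAA and MT libraries; circles are replicate 1, squares replicate 2 and lines group means. XTH22 and XTH23 lie lowest in both control libraries and highest in both MT libraries, whereas XTH24 is highest in control.

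XTH22 was at 25.4 and 30.0 CPM in the control libraries, 55.4 and 61.8 CPM under IAA and 75.9 and 71.8 CPM under MT. Every IAA library lay above both controls and every MT library above both IAA libraries, with no overlap between groups. The means were 27.7 ± 3.25, 58.6 ± 4.47 and 73.8 ± 2.91 CPM (SD, n = 2). The log2 fold change was 1.08 ± 0.10 with IAA and 1.42 ± 0.10 with MT (SE; edgeR's quasi-likelihood test, adjusted p = 0.00484 and 0.000393). Without any single library the change stayed between 0.96 and 1.19 with IAA and between 1.29 and 1.53 with MT, and it passed the threshold each time. XTH22 was the 1 gene among the 10 that was called in both comparisons.

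XTH23, the member closest to TCH4 in coding sequence, was much lower: in control its mean level was 1.15 CPM per kb of exon, against 17.4 CPM per kb for XTH22. It was at 1.57 and 1.58 CPM in the control libraries, 2.56 and 3.11 CPM under IAA and 4.35 and 4.16 CPM under MT. The 3 groups did not overlap and stood in the same order as for XTH22. The log2 fold change with MT was 1.43 ± 0.23 (SE; edgeR's quasi-likelihood test, adjusted p = 0.0174), and that with IAA was 0.84 ± 0.23 (adjusted p = 0.21), not past the threshold. The MT call rested on all 4 libraries of the comparison: without control replicate 1 the adjusted p was 0.17, without control replicate 2 it was 0.0914, without MT replicate 1 0.103 and without MT replicate 2 just above the threshold of 0.05, while the fold change stayed between 1.40 and 1.45.

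XTH24 lay lower in the treated libraries. It was at 44.3 and 43.4 CPM in the control libraries, 31.0 and 28.6 CPM under IAA and 38.4 and 28.8 CPM under MT. Both treated groups lay below both controls, and the IAA and MT libraries overlapped. The log2 difference was -0.56 ± 0.12 with IAA and -0.38 ± 0.12 with MT (SE), and neither passed in edgeR's quasi-likelihood test (adjusted p = 0.115 and 0.225). With IAA it did pass in DESeq2 (adjusted p = 0.00516), with no filter on low counts (0.0433) and when only control and IAA were fitted (0.0414). Without any single library the log2 difference with IAA stayed between -0.63 and -0.51. With MT it was -0.61 without MT replicate 1 and -0.20 without MT replicate 2. DESeq2 called more genes in general, which bears on each of its calls given here and below. Over all genes it called 475 with IAA and 823 with MT, against 149 and 403 in edgeR's test.

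XTH25 was nearly silent and was not tested. It had 17 and 2 counts in the control libraries, 9 and 0 under IAA and 0 in both under MT. A count of 0 allows a level of up to 0.0607 and 0.0748 CPM in the MT libraries, counting 3 reads as the floor, and control replicate 2 was below that at 0.0421 CPM. The 2 control libraries differed from each other more than control replicate 2 differed from the treated libraries. XTH25 lies next to XTH22 in a row with XTH12 and XTH13 on chromosome 5, with 565 bases between XTH25 and XTH22.

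**Figure D2:**
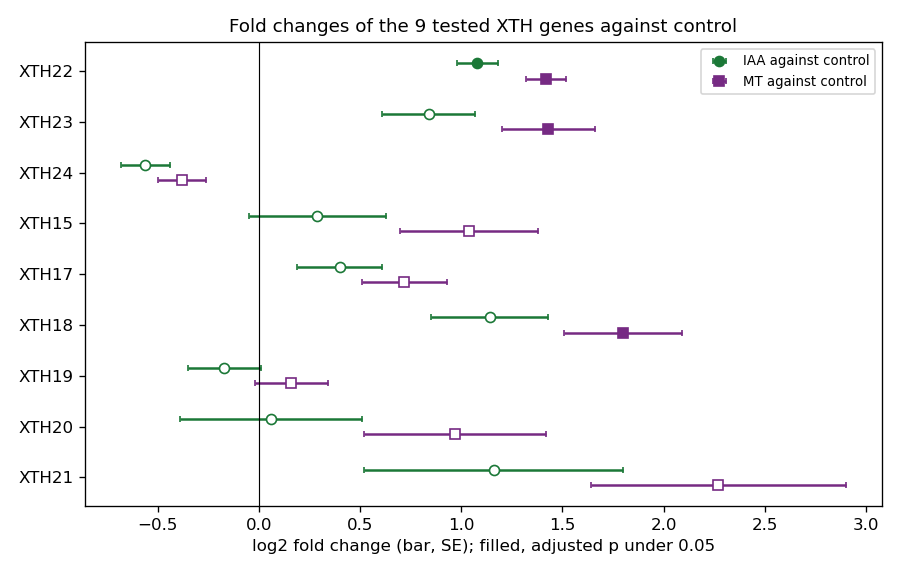
Log2 fold change against control (horizontal axis; bars, SE) of the 9 tested XTH genes with IAA (circles) and MT (squares); filled symbols passed an adjusted p of 0.05. The filled symbols are XTH22 in both comparisons and XTH23 and XTH18 with MT, and XTH24 lies to the left of 0 in both.

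Among the 5 root-type genes, XTH18 rose with MT and the other 4 did not pass the threshold in either comparison. XTH18 was at 2.97 and 5.08 CPM in the control libraries, 9.64 and 8.01 CPM under IAA and 17.2 and 10.7 CPM under MT. The groups did not overlap, and MT replicate 1 was well above MT replicate 2. The log2 fold change was 1.80 ± 0.29 with MT (SE, adjusted p = 0.0163) and 1.14 ± 0.29 with IAA (adjusted p = 0.164, edgeR's quasi-likelihood test). Without MT replicate 1 the change with MT was 1.42 (adjusted p = 0.112) and without control replicate 1 it was 1.46 (0.137), so the call rested on these libraries. With IAA, XTH18 passed in DESeq2 (adjusted p = 0.00881).

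XTH17, the near copy of XTH18, was at 4.41 and 5.23 CPM in the control libraries, 6.92 and 5.73 CPM under IAA and 9.37 and 6.41 CPM under MT. Both treated groups lay above control and overlapped each other. Its log2 fold change was 0.40 ± 0.21 with IAA and 0.72 ± 0.21 with MT (SE; edgeR's quasi-likelihood test, adjusted p = 0.56 and 0.186). Scaled to exon length, the log2 ratio of XTH17 to XTH18 was 0.59 and 0.06 in the control libraries, -0.46 in both IAA libraries, and -0.86 and -0.72 with MT. XTH17 was thus the higher of the pair in both controls and the lower in all 4 treated libraries. With 2 libraries a group, an exact test of that ratio could not reach the threshold and none was run.

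XTH19 stands next to XTH18 on chromosome 4, with 1500 bases between them, and XTH24 lies 5161 bases beyond XTH18 on the other side. XTH19 was at 47.6 and 40.7 CPM in the control libraries, 44.8 and 33.7 CPM under IAA and 58.0 and 40.7 CPM under MT. All 3 groups overlapped. Its log2 fold change was -0.17 ± 0.18 with IAA and 0.16 ± 0.18 with MT (SE; edgeR's quasi-likelihood test, adjusted p = 0.801 and 0.767), and the 95% interval with MT ran from -0.25 to 0.57, below that of XTH18 (1.15 to 2.46). Per exon length, the log2 ratio of XTH18 to XTH19 was -3.92 and -2.92 in the control libraries, -2.14 and -1.99 under IAA and -1.67 and -1.84 under MT. The neighbouring genes thus came closer together in level in all 4 treated libraries.

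XTH20 and XTH21 were low and varied widely between the control libraries. XTH20 was at 1.07 and 2.97 CPM in the control libraries, 1.65 and 2.57 CPM under IAA and 4.49 and 3.37 CPM under MT. XTH21 was at 0.153 and 0.527 CPM in the control libraries, 0.463 and 1.07 CPM under IAA and 1.60 and 1.67 CPM under MT. For both genes the MT libraries lay above all 4 others, whereas IAA overlapped control. The log2 fold change of XTH21 with MT, 2.27 ± 0.63 (SE), was the largest of the 9 but did not pass (adjusted p = 0.15, edgeR's quasi-likelihood test; it did in DESeq2, with adjusted p = 0.0256). It was 1.62 without control replicate 1 and 3.38 without control replicate 2. That of XTH20 was 0.97 ± 0.45 (adjusted p = 0.407). Its counts of 56 and 141 in the controls show how far the fold depends on 1 library: it was 0.40 without control replicate 1 and 1.86 without control replicate 2.

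XTH15 was at 1.02 and 1.94 CPM in the control libraries, 1.76 and 1.84 CPM under IAA and 3.24 and 2.82 CPM under MT. The MT libraries lay above all others, and IAA lay within the range of control. The log2 fold change was 0.29 ± 0.34 with IAA and 1.04 ± 0.34 with MT (SE; edgeR's quasi-likelihood test, adjusted p = 0.825 and 0.225). XTH15 overlaps AT4G14120 on the opposite strand, and whether the counting used strand is not given in the sources used here. Reads from the overlap may have been counted for either gene or dropped, and their share is not known.

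Counting genes whose MT libraries both lay above both controls gives 7 of the 9 tested members, where 22.5% of all tested genes did so. With IAA it was 4 of 9, against 23.6% of all genes. XTH24 was the 1 tested member whose treated libraries all lay below both controls, which 22.2% of genes did with MT and 20.2% with IAA. By type, the 3 tested genes among XTH22 to XTH25 had a median log2 fold change of 1.42 with MT and 0.84 with IAA, and the 5 root-type genes 0.97 and 0.40. Within each type the spread was wide, from -0.38 to 1.43 with MT in the former and from 0.16 to 2.27 in the latter, so the ranges overlapped.

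Summed levels of root markers were also higher in the treated libraries. The 9 endodermis markers summed to 20.1 and 28.3 CPM in the control libraries, 33.8 and 35.7 CPM under IAA and 72.8 and 41.5 CPM under MT. The 6 root hair markers summed to 5.62 and 11.5 CPM in the control libraries, 15.6 and 20.6 CPM under IAA and 30.3 and 15.0 CPM under MT. All 15 had positive log2 fold changes with MT (49.3% of all genes did), with a median of 1.28, though ESB1 and RSL4 overlapped control. Of the 15, 3 passed the threshold, where 1.67% of all genes were called higher. CASP1, which helps build the Casparian strip of the endodermis, was at 1.74 and 2.93 CPM in the control libraries and 12.2 and 5.69 CPM under MT (log2 fold change 1.95 ± 0.39, SE; edgeR's quasi-likelihood test, adjusted p = 0.0479). The peroxidase gene PER72 was at 7.32 and 8.45 CPM in control and 23.2 and 15.1 CPM under MT (1.28 ± 0.19, adjusted p = 0.012). LRX1, a leucine-rich repeat extensin of root hair walls, was at 1.26 and 1.81 CPM in control and 5.16 and 3.34 CPM under MT (1.47 ± 0.29, adjusted p = 0.0447). With IAA 13 of 15 were positive (median 0.61), and MYB36 (-0.41) and RSL4 (-0.39) were negative. In edgeR's quasi-likelihood test 0 passed with IAA and 4 had an unadjusted p under 0.05 (11% of all genes). DESeq2 called CASP1 and LRX1 with IAA. The 8 leaf markers had a median of -0.03 with MT. MT replicate 1 was the highest library for both root sums and for 7 of the 9 tested members, XTH21 and XTH24 being the exceptions. Control replicate 1 was the lowest for both sums and for 7 of the 9, XTH19 and XTH24 being the exceptions, though for XTH23 the control libraries were nearly level. The share of all tested genes with either of these orders was not computed, so the counts only describe the members. XTH22 and XTH23 differed between the MT libraries by less than either root sum, and XTH19 lay at 40.7 CPM in both control replicate 2 and MT replicate 2. The part of root content in the values of any of these genes was not tested.

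**Figure D3:**
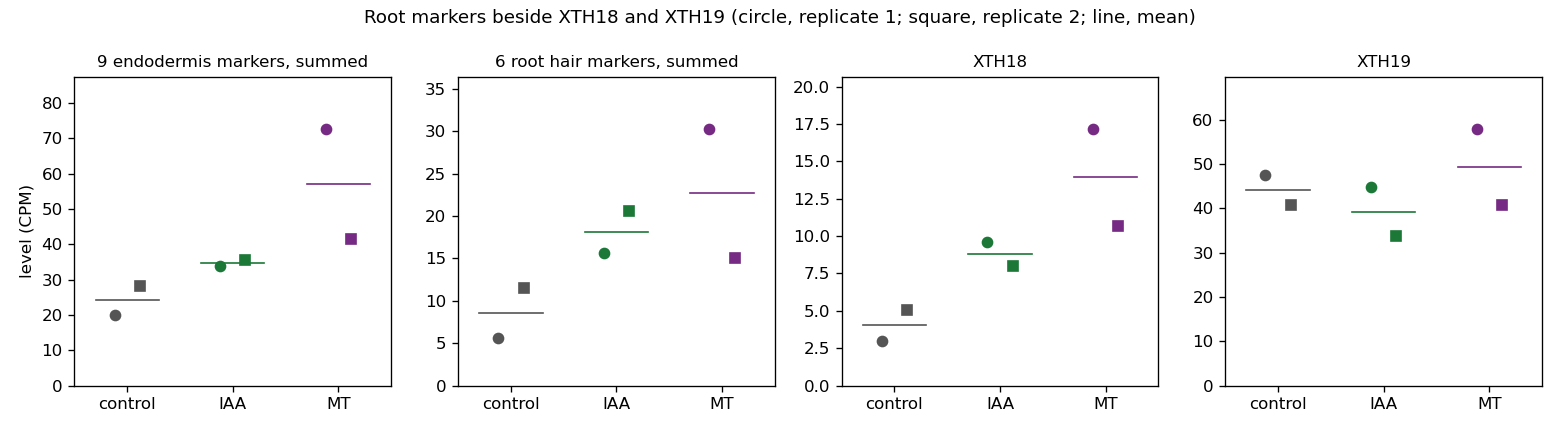
Summed level of the 9 endodermis and the 6 root hair markers, and the levels of XTH18 and XTH19, in CPM (vertical axes, each from 0) by group; circles are replicate 1, squares replicate 2 and lines group means. MT replicate 1 is the highest library in all 4 panels, at 72.8, 30.3, 17.2 and 58.0 CPM, and only XTH19 shows control libraries as high as MT replicate 2.

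MT and IAA, at their different doses, were not told apart at any single XTH gene. All 9 tested members had a positive log2 difference of MT over IAA, from 0.17 for XTH24 to 1.11 for XTH21, as did 48.4% of all genes. Without MT replicate 1 it was -0.05 for XTH24, 0.02 for XTH17 and 0.05 for XTH19, and 0.28 or more for the rest. In edgeR's quasi-likelihood test 0 of the 9 passed (0.0188% of all genes did). XTH22, XTH18 and XTH23 had an unadjusted p under 0.05, as did 10.5% of all genes. DESeq2 also called 0 of the 9, where it called 255 of all genes. For XTH22 the difference was 0.33 ± 0.09 (SE; 95% interval 0.12 to 0.55, not adjusted for the number of genes; adjusted p = 0.307), for XTH23 0.59 ± 0.22 (adjusted p = 0.417) and for XTH18 0.66 ± 0.27 (0.04 to 1.28; adjusted p = 0.45). In 6 of the 9 genes both MT libraries lay above both IAA libraries, against 19.8% of all genes. In the test for any difference among the 3 groups, XTH22 (adjusted p = 0.00126), XTH18 (0.0478) and XTH23 (0.0497) passed, where 1.33% of all genes did; the last 2 of these were lost with library totals as scaling, with limma-voom and with a replicate block.

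Per exon length, the order of the levels differed between control and MT. In control the highest levels were those of XTH24 (36.2 CPM per kb), XTH19 (33.1) and XTH22 (17.4), whose libraries did not overlap. With MT XTH22 came first at 46.4 CPM per kb, before XTH19 at 37.0 and XTH24 at 27.8, and the libraries of XTH19 and XTH24 overlapped. In control XTH17 (3.87 CPM per kb) and XTH18 (3.19) overlapped, whereas with MT XTH18 (11.1) lay above XTH17 (6.34) in both libraries. XTH20, XTH15 and XTH23, at 1.44, 1.22 and 1.15 CPM per kb in control, overlapped one another, and XTH21 (0.284) and XTH25 (0.155) were the lowest, also overlapping.

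The rest of the family showed no called gene. Of the 23 other XTH genes 19 were tested, and 0 passed in any of the 3 comparisons in edgeR's quasi-likelihood test. At an unadjusted p under 0.05 there were 4 with MT, 4 with IAA and 2 between MT and IAA, where 13.2%, 11% and 10.5% of all genes were. DESeq2 called XTH27 with each treatment. Their median log2 fold change was 0.09 with MT and 0.19 with IAA. XTH27 had the lowest p of the any-difference test, with 162 and 175 CPM in the control libraries, 133 and 129 CPM under IAA and 140 and 126 CPM under MT. Its log2 difference was -0.36 ± 0.07 with IAA and -0.34 ± 0.07 with MT (SE; edgeR's quasi-likelihood test, adjusted p = 0.0871 and 0.0635). XTH12 and XTH13, the neighbours of XTH25 and XTH22, are named for their place and were chosen after their values were seen. XTH12 was at 0.479 and 1.37 CPM in the control libraries, 1.68 and 2.04 CPM under IAA and 3.88 and 1.30 CPM under MT, so that MT overlapped control. XTH13 likewise was at 2.29 CPM in MT replicate 1 and 0.673 CPM in MT replicate 2, against 0.422 and 0.759 CPM in control.

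**Figure D4:**
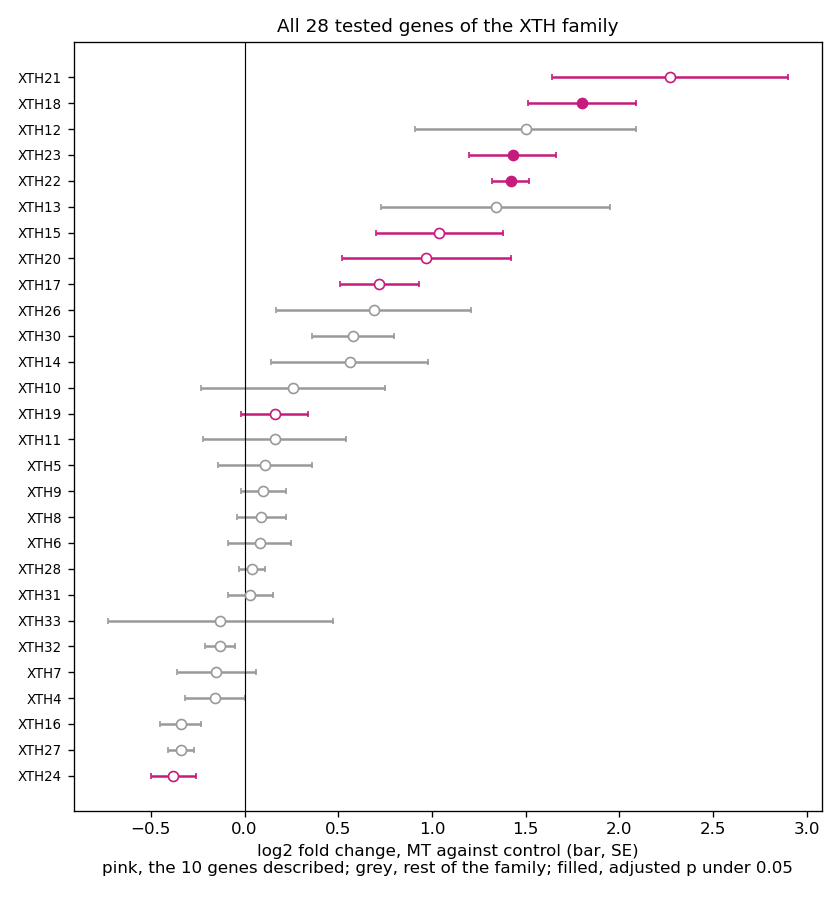
Log2 fold change of MT against control (horizontal axis; bars, SE) for the 28 tested genes of the XTH family, sorted by value; pink marks the genes described here and grey the rest, and filled points passed an adjusted p of 0.05. The 3 filled points, XTH18, XTH23 and XTH22, lie between 1.42 and 1.80, and XTH24 is the lowest at -0.38.

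Among the enzymes that make xyloglucan, 1 of 13 was called higher with MT and 0 with IAA, where 1.67% and 0.583% of all tested genes were. It was XLT2, which adds galactose to the side chains, at 42.0 and 38.9 CPM in the control libraries, 50.9 and 48.7 CPM under IAA and 61.8 and 57.1 CPM under MT. The groups did not overlap, and the log2 fold change with MT was 0.55 ± 0.08 (SE; edgeR's quasi-likelihood test, adjusted p = 0.00835). The median over the 13 genes was 0.11 with MT and 0.16 with IAA. Of the 13, 4 had an unadjusted p under 0.05 with MT and 2 with IAA, where 13.2% and 11% of all genes did. DESeq2 called 2 with MT, XLT2 and CSLC4 (adjusted p = 0.0219 for CSLC4), and 0 with IAA. Of the 3 enzymes that trim xyloglucan side chains 0 passed in edgeR's test (2 at an unadjusted p under 0.05 with IAA and 0 with MT; DESeq2 called XYL1 with IAA); XYL1, the alpha-xylosidase, had the lowest p, at 0.28 ± 0.07 with IAA (adjusted p = 0.142) and 0.05 ± 0.07 with MT (0.827).

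Of the 3 other genes named for touch, 2 rose with MT and 1 with IAA in edgeR's quasi-likelihood test. Of all tested genes, 1.67% were called higher with MT and 0.583% with IAA. The 3 genes were listed with earlier results of these data known, so the counts only describe them. CML12 (TCH3), a calmodulin-like protein, was at 20.2 and 25.6 CPM in the control libraries, 61.5 and 49.5 CPM under IAA and 85.4 and 86.2 CPM under MT. It rose by log2 fold changes of 1.28 ± 0.13 with IAA and 1.91 ± 0.13 with MT (SE; edgeR's quasi-likelihood test, adjusted p = 0.008 and 0.000393). CML24 (TCH2), also calmodulin-like, rose with MT by 1.16 ± 0.13 (adjusted p = 0.00396) and was at 0.73 ± 0.13 with IAA (0.0547). DESeq2 called CML24 with IAA as well (adjusted p = 6.96e-05). CAM2 (TCH1), a calmodulin, passed in neither comparison in edgeR's test, at 0.20 ± 0.11 with IAA and 0.49 ± 0.11 with MT (adjusted p = 0.57 and 0.0768). It did pass with MT in DESeq2 (adjusted p = 0.00685), which called all 3 genes with MT and 2 with IAA.

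The genes most like XTH22 over the 6 libraries, by Pearson correlation of log2 CPM among 12400 genes with a mean of at least 10 CPM, were UCP5 (r = 0.9994), BCS1 (0.9989), AT1G20823 (0.9981), AT1G64470 (0.9971) and AT1G23710 (0.9959). UCP5 was at 11.8 and 14.1 CPM in the control libraries, 30.8 and 33.8 CPM under IAA and 45.0 and 43.0 CPM under MT. Those most like XTH18 were AT1G31130 (r = 0.9932), AT1G24530 (0.9921), AT5G02480 (0.9901), CML24 (0.9890) and GPAT6 (0.9881). The correlation does not reflect the size of a change. With MT the log2 fold changes of these 5 were 0.40, 0.26, 0.18, 1.16 and 0.58, against 1.80 for XTH18. No gene was in both groups of 5. Among the members XTH22 and XTH23 had r = 0.97 and XTH17 and XTH18 0.96, while XTH19 was at 0.04 with XTH22 and 0.27 with XTH18. All 6 points share their library depth and scaling, and 6 points describe a pattern without testing it.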

How the data were processed

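The deposited values are raw read counts, 1 column for each library, in a single table from the authors. The submitters' processing notes name HTSeq 0.6.1, TopHat2 2.0.12, Bowtie2 2.2.3 and DESeq without saying what each did. Not given in the sources used here are the genome build, strand use and read length. The table holds 27416 locus codes, of which 26719 matched TAIR10.1, and 562 rows called newGene. The members and gene lists were chosen with earlier results of these data known. Members, all called genes of the other lists, or else the gene with the lowest p, are named.

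Genes were filtered with filterByExpr, leaving 21267, scaled by TMM and tested with edgeR 4.0.16 (R 4.3.3; glmQLFit, glmQLFTest) with all 6 libraries in 1 fit. The common biological coefficient of variation was 0.123. The SE is the fold change divided by the square root of F, and intervals use t quantiles. Replicates differed by a chi-square of 9.38 to 18.8 per degree of freedom, so no library was a copy of another. Floors of 3 counts cover counting error only. Exon lengths, promoters and coding sequences came from RefSeq TAIR10.1. Coding sequences were aligned globally with Biopython 1.88. The planned comparison of protein sequences was made on coding bases instead.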

Additional observations from a re-analysis of the deposited data

How the results depend on the processing

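With IAA, the number of members called was 1; it was 3 in DESeq2 (XTH18, XTH22 and XTH24), 2 with no filter on low counts, 2 when only the 2 groups were fitted, and 1 to 2 when a library was left out. With MT it was 3; it was 4 in DESeq2, which added XTH21, 2 with a filter at 5 CPM, and 1 to 3 when a library was left out, with XTH22 called each time. The any-difference count of 3 was 4 in DESeq2, 2 with upper-quartile factors, 1 with library totals alone, 1 with limma-voom, 1 with a filter at 5 CPM, and 1 to 3 when a library was left out. The count of 0 between MT and IAA was 0 under every alternative run. Replicate numbers did not pair the samples: the correlations of deviations between same-numbered libraries were 0.03, -0.15 and 0.01. With the replicate number as a block, the counts were 1 with IAA, 3 with MT and 1 for any difference. The number of all genes called also moved. With IAA it was 149 in the main fit, 475 in DESeq2, 268 with no filter and 81 when only control and IAA were fitted. With MT it was 403 in the main fit and 823 in DESeq2. For any difference it was 282 in the main fit and 941 in DESeq2. Directions changed when a library was left out for genes near 0. With IAA, XTH15 ranged from -0.12 to 0.81, XTH19 from -0.40 to 0.02 and XTH20 from -0.51 to 0.95. XTH19 with MT ranged from -0.12 to 0.38, and XTH24 between MT and IAA from -0.05 to 0.36. The cause was not tested. With 1 library left in a group, that library is assumed to vary like the others. The filter at 5 CPM left 5 members to test. XTH24, which is among the members called under some alternatives, lay below control in every alternative with IAA and with MT. Of 420 single-gene values under alternatives, 400 kept their direction and side of the threshold.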
